A study of Mus musculus with 6 samples.

Results

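The genes described here encode 10 receptors and related proteins by which macrophages bind modified proteins, haemoglobin complexes, sialylated cells and dying cells: Cd163, Mrc1, Siglec1, Mertk, Axl, Timd4, Msr1, Cd68, Stab1 and Cd5l. All are called receptors below for short, although Cd5l encodes a secreted protein. The genes were chosen by name, with earlier results of these data known. Each was found on 1 row of the array table with a single gene symbol, and they are 10 of 30063 named genes. The samples were megakaryocytes, the polyploid precursors of platelets, sorted from the bone marrow of female C57 mice by high side scatter, high CD41 and a DNA content of at least 8N. The first group came from mice with acute myeloid leukaemia (AML) induced by the fusion oncogene MLL-AF9 and the other from healthy control mice, with 3 arrays in each group. The means of delivering the oncogene, the age of the mice and whether animals were pooled are not given in the labels. Arrays within a group are labelled as biological replicates but are not tied to animals, and the p-values therefore cover only the spread seen between these arrays.

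Scavenger receptors recognise a wide range of altered ligands and hand them to lysosomes, and receptors for dying cells recognise phosphatidylserine on the cell surface either directly or through bridging proteins. In bone marrow these receptors are best known from resident macrophages, which clear expelled erythroblast nuclei, aged blood cells and haemoglobin released from them. Megakaryocytes are not known for most of them, although Axl and Mertk have been described on platelets of mice, where they bind the ligand Gas6.

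Values are the deposited RMA values on a log2 scale. Differences are AML minus control, and errors after ± are SDs within a group (n = 3). With so few arrays the precision is limited by their number. Adjusted p comes from limma's two-sided moderated test, the Benjamini-Hochberg method having been applied to all 30063 genes, and 0.05 was the threshold. Over all genes the median difference was 0.11, and -0.01 after each array was centred on its median. Because no detection calls were used, a dim level was taken on each array as the 95th percentile of 1528 olfactory and vomeronasal receptor genes. It lay at 5.59, 5.78 and 6.21 on AML arrays 1 to 3, against 5.58, 5.19 and 5.13 on control arrays 1 to 3, so that AML array 3 had the highest. Fitted folds of genes near it are open to this background. All 14 measured megakaryocyte markers stood above the dim level on every array. Their median difference was 0.25. Every AML value lay above every control value in 2 of them and below in 0, against 28.2% and 13.1% of all genes. The brightest of the 14 were Ppbp and Pf4. Pf4, the platelet factor 4 gene, averaged 11.98 ± 0.22 in AML and 12.09 ± 0.12 in control (adjusted p = 0.546), and Ppbp, the gene of another platelet chemokine, 12.23 ± 0.16 in AML and 12.37 ± 0.17 in control (adjusted p = 0.424).

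The receptor genes stood lower in the AML sorts. Of the 10, 7 fell past the threshold (Mrc1, Cd163, Axl, Siglec1, Msr1, Mertk and Timd4) and 0 rose. Cd68, Cd5l and Stab1 did not pass. Over all named genes 6.25% fell and 4.49% rose. In 9 of the 10, all but Stab1, every AML value lay below every control value, which was so for 13.1% of all genes, and in 0 of the 10 did every AML value lie above, against 28.2% of all genes. The median difference of the 10 was -0.89, or -1.0 relative to all genes. Mrc1, Cd163 and Axl, 3 of the 10, passed both the threshold and a 2-fold minimum, against 1.49% of all genes. The count rested on single arrays in part, and was 3 without control array 2 and 3 without control array 3. Macrophage markers, listed apart from these receptors, stood lower in the same sorts. In bulk samples fewer cells of a type and less RNA per cell cannot be told apart.

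**Figure D1:**
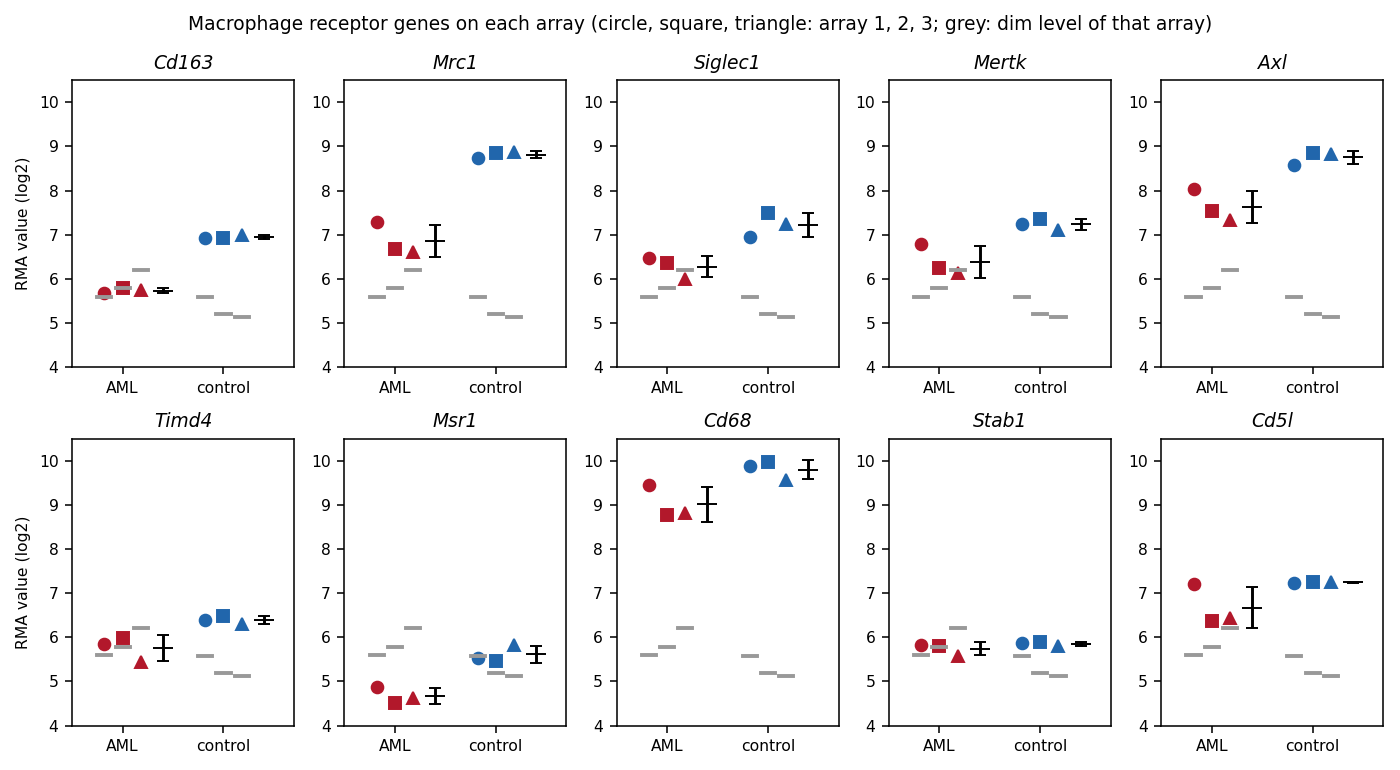
RMA values (log2) of the 10 receptor genes in AML and control sorts. Symbols are single arrays, black bars are the mean with the SD over 3 arrays, and grey bars mark the dim level of each array. In every panel but that of Stab1 the 3 AML values lie below the 3 control values, and Msr1 lies below the dim level on all AML arrays.

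Haemoglobin and mannose receptors changed most. Mrc1 encodes the mannose receptor CD206, an endocytic receptor for glycoproteins that end in mannose. It read 7.28, 6.68 and 6.62 on AML arrays 1 to 3, against 8.73, 8.84 and 8.87 on control arrays 1 to 3. The control arrays lay close together, and AML array 1 was the highest of its group but still 1.45 below the lowest control array. The means were 6.86 ± 0.37 in AML and 8.82 ± 0.08 in control, a difference of -1.95 (SE 0.17, 95% interval -2.37 to -1.54, adjusted p = 0.0015), or 3.87-fold lower. Only 75 of 30063 genes, or 0.249%, had a lower difference.

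Cd163 encodes the scavenger receptor for complexes of haemoglobin and haptoglobin and is a marker of tissue macrophages. Its values were 5.67, 5.79 and 5.75 on the AML arrays, against 6.93, 6.93 and 7.0 on the control arrays. Both groups were tight, with SDs of 0.06 in AML and 0.04 in control, and the gap between them was 1.14. The difference was -1.22 (SE 0.07, 95% interval -1.39 to -1.05, adjusted p = 3.8e-04), or 2.33-fold lower, and by p Cd163 ranked 39 among all genes. The AML values stood above the dim level on 2 of 3 arrays, by at most 0.08, so that little of the AML signal lay above background.

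The promoters of these 2 genes and of Stab1, the receptor gene with the smallest difference, are shown because members that fell together can be set beside one that did not. Each window runs from 250 bases before to 50 bases after the start of the gene on its own strand, from RefSeq, mouse build GRCm38.p6. The windows are chr2:14229164-14229463 (plus strand) for Mrc1, chr6:124304401-124304700 (plus strand) for Cd163 and chr14:31168592-31168891 (minus strand) for Stab1. Capitals mark GAGGAA, a sequence with the GGAA core that the macrophage factor PU.1 and other ETS proteins bind, and TGCTGA, which resembles part of the element bound by MAF proteins, each searched on both strands. No match of one overlapped a match of the other in these windows.
Mrc1: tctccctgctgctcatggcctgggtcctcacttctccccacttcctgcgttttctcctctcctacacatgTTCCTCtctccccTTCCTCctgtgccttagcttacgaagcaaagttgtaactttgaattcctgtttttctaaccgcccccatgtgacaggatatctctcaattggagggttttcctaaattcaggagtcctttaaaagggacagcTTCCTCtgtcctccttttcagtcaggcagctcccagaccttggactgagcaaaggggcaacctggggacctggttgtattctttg
Cd163: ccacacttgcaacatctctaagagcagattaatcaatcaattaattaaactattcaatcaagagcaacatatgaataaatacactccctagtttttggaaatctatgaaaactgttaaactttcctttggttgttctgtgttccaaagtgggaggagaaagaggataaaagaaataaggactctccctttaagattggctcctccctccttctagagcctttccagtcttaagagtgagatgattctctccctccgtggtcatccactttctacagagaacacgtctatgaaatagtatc
Stab1: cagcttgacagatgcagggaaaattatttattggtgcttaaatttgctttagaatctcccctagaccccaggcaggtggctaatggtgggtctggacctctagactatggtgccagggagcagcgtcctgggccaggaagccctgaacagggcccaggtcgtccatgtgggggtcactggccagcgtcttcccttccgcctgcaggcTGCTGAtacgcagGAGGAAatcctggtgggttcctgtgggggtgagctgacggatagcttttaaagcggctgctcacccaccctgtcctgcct
The Mrc1 window held 3 matches to GAGGAA, all on the opposite strand, and 0 to TGCTGA. The Cd163 window held 0 of either. That of Stab1 held 1 of each. Of the 8 receptor genes with a promoter in the RefSeq table, 5 had GAGGAA (Mrc1, Axl, Cd68, Stab1 and Cd5l) and 3 had TGCTGA (Timd4, Stab1 and Cd5l), against 28.3% and 19.5% of all 32851 windows of the same length. The E-box CACGTG, to which the lysosomal regulator TFEB binds, was in 0 of the 8 and in 7.15% of all windows. Matches therefore did not divide genes that fell from Stab1, and a match is a run of letters rather than a shown binding site.

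Msr1, Cd68 and Stab1 belong to other scavenger receptor classes. Msr1 encodes the class A macrophage scavenger receptor for acetylated and oxidised lipoproteins. It read 4.88, 4.52 and 4.63 on the AML arrays, against 5.54, 5.47 and 5.83 on the control arrays. All AML values were below the dim level, as was control array 1, so that no fold is given. The fitted difference was -0.94 (SE 0.13, adjusted p = 0.0077).

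Cd68 encodes macrosialin, a glycoprotein of late endosomes and lysosomes that is used to stain macrophages. It read 9.45, 8.77 and 8.81 on the AML arrays, against 9.88, 9.96 and 9.56 on the control arrays. The groups did not overlap, but AML array 1 came within 0.10 of control array 3. The difference of -0.79 (SE 0.20, 95% interval -1.27 to -0.31) missed the threshold (adjusted p = 0.0516). It passed without AML array 1 (difference -1.01, adjusted p = 0.0141) and under median centring (difference -0.91, adjusted p = 0.0366), and over its 17 alternatives the adjusted p ran from 0.0141 to 0.172.

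Stab1 encodes stabilin 1, a receptor of sinusoidal endothelium and of some macrophages that takes up the matrix protein SPARC and dying cells. It read 5.84, 5.81 and 5.57 on the AML arrays, against 5.88, 5.89 and 5.80 on the control arrays. The groups overlapped, and the AML values reached the dim level on 2 of 3 arrays. The difference was -0.12 (95% interval -0.33 to 0.10, adjusted p = 0.375), and it passed in 0 of 17 alternatives. 

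Siglec1 encodes sialoadhesin (CD169), a lectin for sialic acid by which marrow macrophages hold other cells, among them the erythroblasts of erythroblastic islands. Its values were 6.47, 6.37 and 6.0 on the AML arrays, against 6.94, 7.50 and 7.24 on the control arrays. The AML arrays spread over 0.46 and the control arrays over 0.55, with a gap of 0.48 between the groups. AML array 3 lay below its dim level of 6.21, so that the fold is open to background. The difference was -0.95 (SE 0.17, 95% interval -1.35 to -0.54, adjusted p = 0.0189), or 1.93-fold lower. It no longer passed on leaving out AML array 2 (adjusted p = 0.0516), control array 2 (0.0706) or control array 3 (0.0788).

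**Figure D2:**
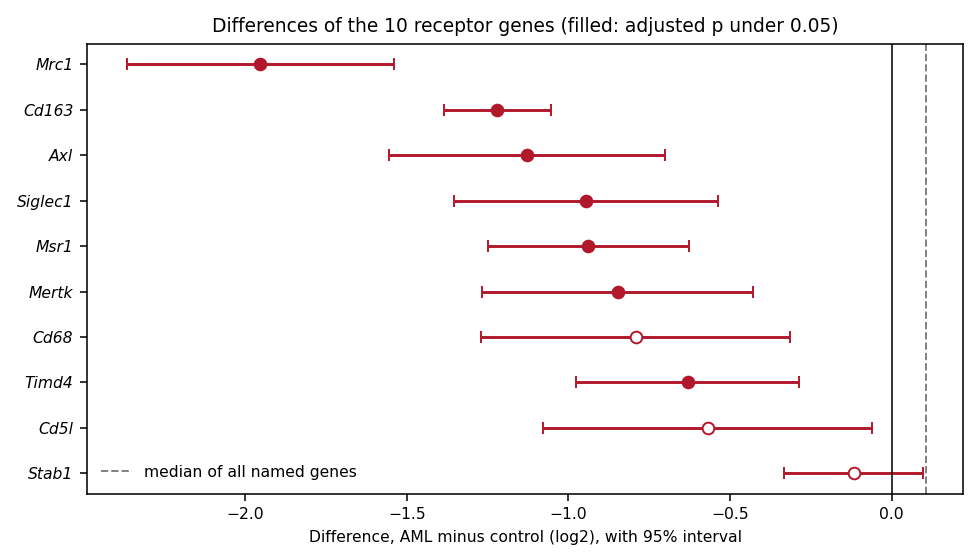
Difference of each receptor gene, AML minus control (log2), with its 95% interval from the limma fit over all genes. Filled points passed an adjusted p of 0.05. Mrc1 lies lowest at -1.95, and Stab1, at -0.12, has the only interval that includes 0.

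Receptors for dying cells also fell. Mertk and Axl encode receptor tyrosine kinases of the TAM family, which bind phosphatidylserine through the bridging proteins Gas6 and protein S. Axl read 8.03, 7.53 and 7.33 on the AML arrays, against 8.59, 8.86 and 8.84 on the control arrays. The lowest control array stood 0.56 above the highest AML array. The means were 7.63 ± 0.36 in AML and 8.76 ± 0.15 in control, a difference of -1.13 (SE 0.18, 95% interval -1.56 to -0.70, adjusted p = 0.0124), or 2.19-fold lower. It no longer passed when control array 2 (adjusted p = 0.0612) or control array 3 (0.0605) was left out.

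Mertk, the kinase that macrophages need for efficient clearance of dying cells in mice, read 6.80, 6.25 and 6.13 on the AML arrays, against 7.24, 7.36 and 7.11 on the control arrays. AML array 1 stood 0.31 below the lowest control array, and AML array 3 lay below its dim level. The difference was -0.85 (SE 0.18, 95% interval -1.27 to -0.43, adjusted p = 0.0294), or 1.80-fold lower. The call was lost without AML array 2 (adjusted p = 0.0867), control array 1 (0.0634), control array 2 (0.116) or control array 3 (0.0825), and when all rows of the table were fitted (0.0596).

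Timd4 encodes TIM-4, which binds phosphatidylserine directly and marks long-lived resident macrophages in mice. It read 5.86, 5.99 and 5.44 on the AML arrays, against 6.39, 6.49 and 6.30 on the control arrays. The AML values passed the dim level on 2 of 3 arrays. The difference was -0.63 (SE 0.15, 95% interval -0.98 to -0.29, adjusted p = 0.0393), or 1.55-fold lower, and the call was lost without AML array 1 (adjusted p = 0.0702), control array 1 (0.0790), control array 2 (0.145) or control array 3 (0.103), and when all rows were fitted (0.0755).

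Cd5l encodes AIM, a secreted protein of tissue macrophages with scavenger receptor cysteine-rich domains. It read 7.22, 6.37 and 6.43 on the AML arrays, against 7.23, 7.25 and 7.25 on the control arrays. AML array 1 lay at the level of the controls, whereas the other two AML arrays stood well below them. The control arrays differed by an SD of 0.01. With all arrays the difference of -0.57 (SE 0.22, 95% interval -1.08 to -0.06) did not pass (adjusted p = 0.124), and without AML array 1 it did (difference -0.84, adjusted p = 0.0052).

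Most of the receptors were highest on the same AML array, a pattern that the fit did not use. AML array 1 was the highest of the 3 for 8 of the 10 receptor genes and for 10 of 11 macrophage markers, against 26.1% of all named genes. AML array 3 was the highest for 0 of the receptors and 0 of the macrophage markers, although it was the highest for 41.0% of all genes. Shares over all genes include dim genes, and the dim level was highest on AML array 3. They are therefore not a like baseline for brighter genes. The lowest AML value was less uniform. It lay on AML array 3 for 6 receptors, against 40.5% of all genes, on AML array 2 for 3 and on AML array 1 for 1, Cd163. Monocyte markers did not share the pattern of highest arrays, since each AML array was the highest for 3 of the 9 measured. Both Cd68 and Cd5l passed the threshold without AML array 1, and the median level of the macrophage markers was 7.06 on that array, against 6.72 and 6.63 on AML arrays 2 and 3.

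Markers of macrophages fell beside the receptors. Of 11, 10 fell and 0 rose, with a median difference of -1.16. Leaving out either control array 2 or control array 3 left 6 falls. After undoing the log, their summed level ran from 2180 to 3014 in AML and from 5301 to 6015 in control. Such a sum is weighted to the brightest markers, here Lyz2 and Fcna. Lyz2, the lysozyme gene, averaged 9.53 ± 0.29 in AML and 11.03 ± 0.09 in control (adjusted p = 0.0020), and Fcna, the gene of the lectin ficolin A, averaged 8.55 ± 0.37 in AML and 9.81 ± 0.13 in control (adjusted p = 0.0081). Adgre1, which encodes the macrophage antigen F4/80, averaged 8.10 in AML and 9.17 in control and was also above the dim level on all arrays. Vsig4, a complement receptor of resident macrophages, was below the dim level on all AML arrays. The part of these cells in the receptor differences was not tested.

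Set against the median of the 11 macrophage markers on the same array, most receptors no longer stood lower. This relative level was higher in AML for 6 of the 10 (Siglec1, Mertk, Timd4, Msr1, Stab1 and Cd5l) with no overlap between groups, as it was for 97.4% of all genes. It overlapped for Cd163, Axl and Cd68. The relative level of Cd163 averaged -1.06 ± 0.28 in AML and -1.12 ± 0.19 in control, and that of Axl 0.83 ± 0.14 in AML and 0.69 ± 0.09 in control. Mrc1 was the exception, with a relative level of 0.23, -0.03 and -0.01 on the AML arrays, against 0.91, 0.69 and 0.62 on the control arrays. This restates its difference of -1.95, the largest fall of the 10, against the marker median and is not separate evidence. Only 0.339% of all genes, 102 in number, stood lower in AML without overlap by this measure. The relative level of Stab1 was higher by 1.16 in AML, although its own difference was -0.12. All AML values of Msr1 lay below the dim level. Siglec1, Mertk, Timd4 and Stab1 stood above it on only 2 of 3 AML arrays. A value near background has little room to fall, so these relative levels rest largely on the marker median. The marker median that is subtracted was itself lower in AML, at 6.63 to 7.06, against 7.82 to 8.25 in control. These relative levels were not tested.

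**Figure D3:**
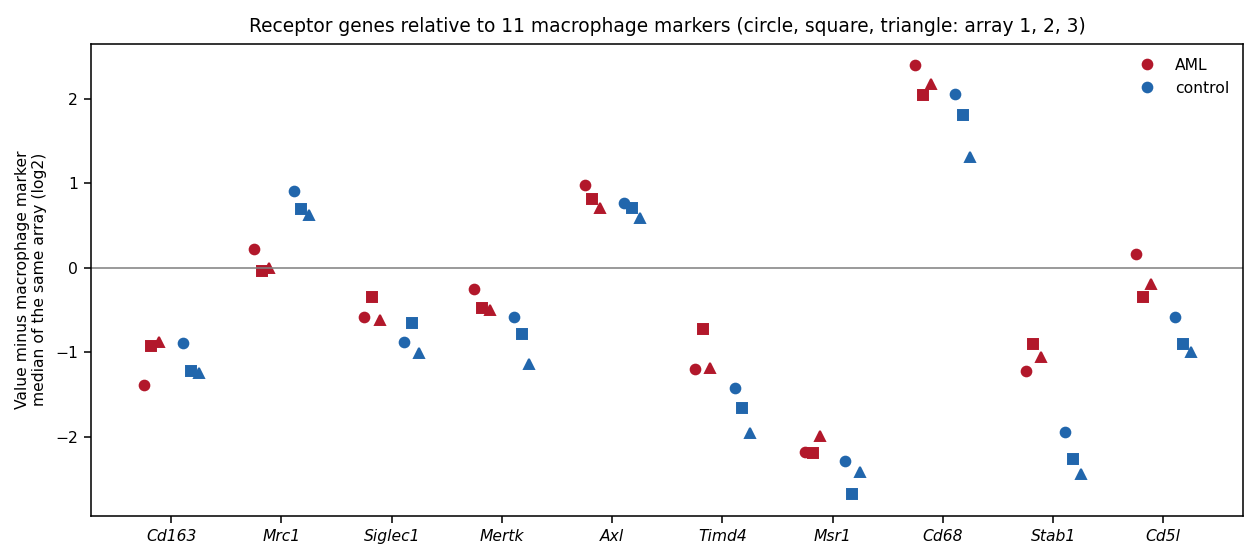
Value of each receptor gene minus the median of 11 macrophage markers on the same array (log2), for AML (red, left) and control (blue, right). Values are to be compared within a gene only. Mrc1 is the only gene whose AML values all lie below its control values, while those of Stab1 lie at least 0.73 above. The marker median itself is lower in AML, and 97.4% of all genes have every AML value above every control value by this measure.

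Other cell types that such sorts could hold also differed. Of 9 neutrophil markers 9 fell, with a median difference of -1.60 and summed levels of 7201 to 9201 in AML, against 22107 to 26110 in control. Ngp, a granule protein gene, averaged 11.31 ± 0.24 in AML and 12.42 ± 0.05 in control (adjusted p = 0.0032), and Retnlg, a gene of the resistin family, 11.11 ± 0.08 in AML and 12.17 ± 0.11 in control (adjusted p = 0.0011). Of 9 monocyte markers 7 fell, but Ly6c2, the brightest, averaged 12.27 ± 0.30 in AML and 11.95 ± 0.10 in control (adjusted p = 0.187), and Nr4a1, a nuclear receptor of patrolling monocytes, 8.60 ± 0.30 in AML and 9.21 ± 0.24 in control (adjusted p = 0.0727). Of 8 endothelial markers, relevant to Stab1 and Mrc1 because sinusoidal endothelium carries both, 4 fell, and 0 to 2 did so without single arrays other than AML array 3. The median difference of the 8 was -0.32. Tie1 averaged 6.41 ± 0.10 in AML and 6.50 ± 0.01 in control (adjusted p = 0.380), and Esam 6.37 ± 0.23 in AML and 6.36 ± 0.28 in control (adjusted p = 0.956). Falls numbered 5 of 10 dendritic cell, 3 of 6 erythroblast, 4 of 6 B cell, 1 of 4 plasma cell, 3 of 6 basophil and mast cell, 3 of 6 eosinophil and 0 of 7 T and NK cell markers, and only the last list held a rise, of 1 gene. Markers below the dim level on every array of at least 1 group numbered 6, 2, 5, 3, 2, 0 and 6 in these lists, in the same order. Among neutrophil, monocyte and endothelial markers they numbered 0, 2 and 3. Without single arrays the B cell falls numbered 2 or 3, the plasma cell falls 0 or 1 and the T and NK cell rise 0 or 1. Of 14 megakaryocyte markers, 0 fell and 0 rose. The part of these cells in the receptor differences was not tested.

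Other genes for the recognition of dying cells were listed apart from the 10 receptors. Of 22 genes, 10 fell and 1 rose, with a median difference of -0.17, and the falls numbered 3 without control array 2 and 3 without control array 3. Cd36, a class B scavenger receptor for oxidised lipids and dying cells, read 5.32, 4.46 and 4.38 on the AML arrays, against 6.74, 6.71 and 6.91 on the control arrays. The AML values lay below the dim level, so the fall was at least 1.90-fold (adjusted p = 0.0037). Stab2, the paralogue of Stab1 and a hyaluronan receptor of sinusoidal endothelium, read 5.41, 5.30 and 5.20 on the AML arrays, against 6.31, 6.28 and 6.02 on the control arrays, at least 1.27-fold lower (adjusted p = 0.0037). Lrp1, an endocytic receptor that pairs with calreticulin, fell by 1.05 (adjusted p = 0.0100) and Itgav, the integrin subunit alpha V, by 0.61 (adjusted p = 0.0107). Itgav stood above the dim level on 2 of 3 AML arrays, and its call was lost when control array 2 or 3 was left out.

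The bridging proteins of the TAM receptors did not pass. Gas6 averaged 5.76 in AML and 5.90 in control (adjusted p = 0.161), and Pros1, the protein S gene, 5.94 in AML and 6.03 in control (adjusted p = 0.753). For both genes only 2 of 3 AML arrays stood above the dim level. Every AML value of Gas6 lay below every control value, as for 13.1% of all genes. Tyro3, the remaining TAM kinase, was below the dim level on all 6 arrays. Calr, the calreticulin gene, averaged 9.10 ± 0.20 in AML and 8.81 ± 0.04 in control (adjusted p = 0.123), and Itgb5, an integrin subunit for the bridging protein MFG-E8, averaged 7.85 ± 0.29 in AML and 7.78 ± 0.20 in control (adjusted p = 0.764). The complement opsonin genes C1qa, C1qb and C1qc, named with their values known, fell by 1.08, 1.15 and 0.73. None of these passed without control array 2 or without control array 3, where the 3 falls of the list were Cd36, Stab2 and Lrp1. The gene that rose, Adgrb1, also chosen afterwards, encodes the phosphatidylserine receptor BAI1 and differed by 0.28 (adjusted p = 0.0433), a call that held in 0 of the 5 fits leaving out an array other than AML array 3.

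Engulfment signalling genes act below the receptors. Of 15, 2 fell and 0 rose, and in 7 every AML value lay below every control value, with a median difference of -0.34 relative to all genes. Over all genes 6.25% fell and 13.1% had such an order. Cybb, the gene of the phagocyte oxidase subunit gp91phox, averaged 8.60 ± 0.20 in AML and 10.46 ± 0.15 in control, or 3.64-fold lower (adjusted p = 6.1e-04). Dock2, an activator of Rac, fell by 0.74 (adjusted p = 0.0453), and its call was lost without any single array but control array 1. Rac2 averaged 10.99 ± 0.28 in AML and 11.09 ± 0.14 in control (adjusted p = 0.640), and Rab7, a GTPase of late endosomes, 10.69 ± 0.23 in AML and 11.03 ± 0.05 in control (adjusted p = 0.114).

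Signals for and against engulfment held 3 falls and 0 rises among 10 measured genes. Cd24a, a surface glycoprotein that inhibits engulfment through a Siglec receptor in humans, averaged 9.89 ± 0.12 in AML and 10.80 ± 0.17 in control (adjusted p = 0.0041). Sirpa, the phagocyte receptor for CD47, averaged 8.52 ± 0.29 in AML and 9.39 ± 0.16 in control (adjusted p = 0.0177), and Atp11a, a phospholipid flippase, fell by 0.68 (adjusted p = 0.0235), with 2 of 3 AML arrays above the dim level. The count was 1 on leaving out AML array 2 or one of control arrays 2 and 3. Cd47, whose protein holds phagocytes off, averaged 10.21 ± 0.19 in AML and 10.13 ± 0.06 in control (adjusted p = 0.589), and Ptpn6, the phosphatase that acts below SIRPA, 8.55 ± 0.30 in AML and 8.91 ± 0.20 in control (adjusted p = 0.179).

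Genes that handle the cargo of engulfed cells form another list. Of 12 measured genes of digestion and cholesterol efflux, 6 fell and 0 rose, and 2 were past the threshold when control array 2 or control array 3 was left out. Pparg, a lipid-sensing nuclear receptor, averaged 5.77 ± 0.26 in AML and 7.23 ± 0.10 in control (adjusted p = 0.0017), with 1 of 3 AML arrays above the dim level. Abca1, the cholesterol exporter induced by LXR receptors, averaged 6.16 ± 0.33 in AML and 7.60 ± 0.20 in control (adjusted p = 0.0050), with 2 of 3 AML arrays above it, as for Npc1. Mylip, a degrader of the LDL receptor, fell by 1.06 and Npc1, a lysosomal cholesterol transporter, by 0.70, and both calls were lost without control array 2 or 3 and that of Npc1 also without AML array 2. Apoe averaged 8.40 ± 0.22 in AML and 8.84 ± 0.04 in control (adjusted p = 0.0545), and Lipa, the lysosomal acid lipase gene, 7.57 ± 0.53 in AML and 8.28 ± 0.08 in control (adjusted p = 0.0985). Both passed without AML array 1, as Cd68 and Cd5l did.

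Iron and haem genes bear on Cd163, whose cargo is haemoglobin. Of 11, 7 fell and 0 rose, and leaving out AML array 2 or one of control arrays 2 and 3 left 4 falls. Hmox1, the haem oxygenase that opens the haem ring, averaged 6.91 ± 0.40 in AML and 8.31 ± 0.13 in control, or 2.63-fold lower (adjusted p = 0.0075). Slc11a1, the iron transporter of phagosomes, averaged 7.27 ± 0.36 in AML and 8.66 ± 0.18 in control (adjusted p = 0.0064). Blvrb, a biliverdin reductase, fell by 0.66 (adjusted p = 0.0059), and Ftl1, the ferritin light chain, by 0.51 (adjusted p = 0.0065). Hp, the haptoglobin gene, averaged 8.19 ± 0.35 in AML and 8.31 ± 0.15 in control (adjusted p = 0.645), and Slc48a1, a haem transporter, 7.56 ± 0.11 in AML and 7.56 ± 0.07 in control (adjusted p = 0.999).

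Transcription factors of macrophages fell in 8 of 9 measured genes and rose in 0, a count that was 4 when control array 2 or control array 3 was left out. Spic, needed for iron-recycling macrophages of the mouse spleen, read 5.16, 5.04 and 5.02 on the AML arrays, all below the dim level, against 6.30, 6.03 and 6.03 on the control arrays, at least 1.20-fold lower (adjusted p = 0.0017). Maf, a factor of macrophage identity, averaged 6.42 ± 0.27 in AML and 7.70 ± 0.10 in control (adjusted p = 0.0030). Id3 fell by 0.83 (adjusted p = 0.0023), with 1 of 3 AML arrays above the dim level, and Irf4, which acts in alternative activation, was at least 1.44-fold lower (adjusted p = 0.0066). Tfec alone stood higher, at 7.14 ± 0.23 in AML and 6.68 ± 0.21 in control (adjusted p = 0.0872). It passed upward with array weights, under quantile normalization and cyclic loess and without AML array 3.

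Genes of alternative activation, the state that Mrc1 is often used to mark, fell in 8 of 16 measured and rose in 0. Clec10a, a lectin for galactose, averaged 6.23 ± 0.11 in AML and 7.19 ± 0.07 in control (adjusted p = 0.0015), and its paralogue Mgl2 averaged 6.59 ± 0.06 in AML and 7.27 ± 0.11 in control (adjusted p = 0.0043). Il10, an anti-inflammatory cytokine gene, was at least 1.62-fold lower (adjusted p = 0.0030), with AML values of 4.22, 4.13 and 4.97 against control values of 6.43, 6.43 and 6.82. Il10ra, a chain of its receptor, was at least 1.48-fold lower (adjusted p = 0.0023). Il4ra averaged 7.29 ± 0.30 in AML and 7.77 ± 0.11 in control (adjusted p = 0.0850, and under the threshold without AML array 3), and F13a1, factor XIII A, which platelets also hold, 6.29 ± 0.54 in AML and 7.25 ± 0.13 in control (adjusted p = 0.0544). Arg1 was below the dim level on all 6 arrays.

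Of 18 other scavenger receptor genes, 2 fell and 0 rose, with a median difference of 0.10 against 0.11 over all genes. Scarb2, a lysosomal membrane protein of the CD36 family, averaged 5.83 ± 0.15 in AML and 7.23 ± 0.14 in control (adjusted p = 9.5e-04), and no fold is given because only 1 of 3 AML arrays stood above the dim level. Cxcl16, a membrane chemokine that also takes up oxidised lipoproteins, averaged 6.43 ± 0.39 in AML and 8.23 ± 0.07 in control, or 3.49-fold lower (adjusted p = 0.0023). Olr1, the receptor LOX-1, averaged 10.31 ± 0.68 in AML and 9.87 ± 0.20 in control (adjusted p = 0.338), and Lgals3bp, a secreted protein with a scavenger receptor domain, 7.78 ± 0.20 in AML and 7.65 ± 0.19 in control (adjusted p = 0.523). Of the class A receptors other than Msr1, chosen after their values were seen, Marco averaged 5.83 in AML and 5.84 in control (adjusted p = 0.903), and Scara3, Scara5 and Colec12 were below the dim level on all 6 arrays.

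**Figure D4:**
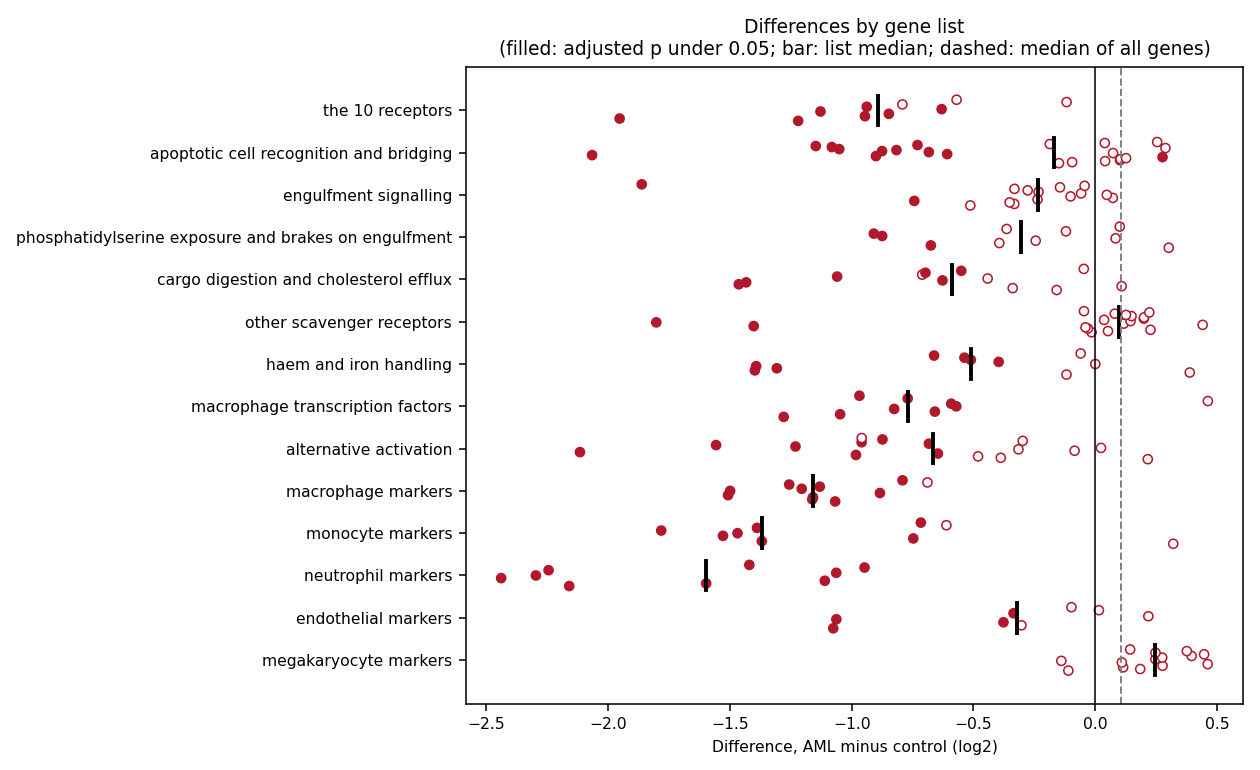
Differences, AML minus control (log2), of the genes of each list. Points are genes, filled where the adjusted p was under 0.05, black bars are list medians and the dashed line is the median over all genes at 0.11. The 10 receptors have a median of -0.89, macrophage markers of -1.16 and megakaryocyte markers of 0.25.

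The genes with the profile most like the mean of the 10 receptors over the 6 arrays were Kcnj10, Slc9a9, Rgl1, Tbc1d9 and Prxl2b. Likeness was the root mean square distance between profiles centred on their means, which was 0.05 for Kcnj10 and 0.06 for the other four. Kcnj10, a potassium channel gene, read 6.13, 5.80 and 5.59 on the AML arrays, against 6.69, 6.92 and 6.81 on the control arrays. Slc9a9, a sodium and proton exchanger of endosomes, read 6.97, 6.67 and 6.63 on the AML arrays, against 7.65, 7.84 and 7.71 on the control arrays. Since 6 arrays in 2 groups leave many genes with such a shape, this is a description.

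**Figure D5:**
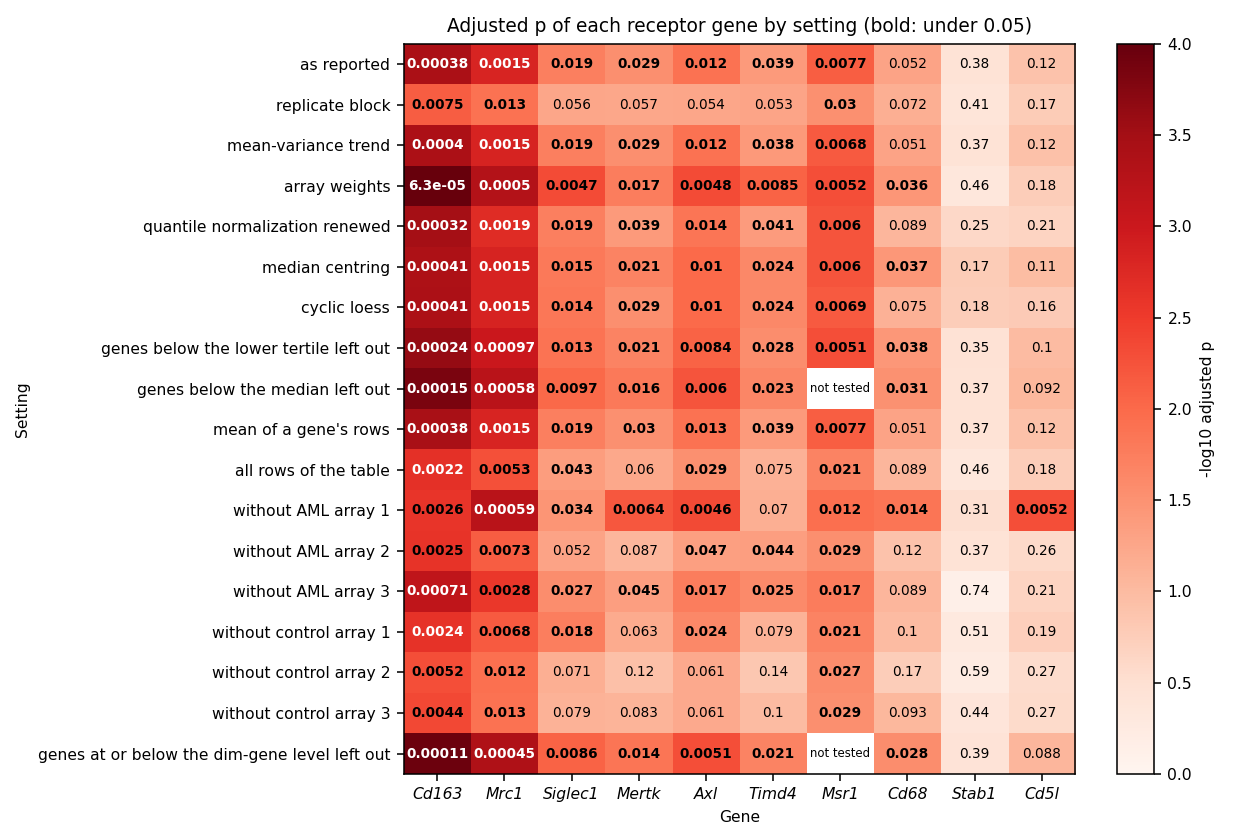
Adjusted p of each receptor gene under the settings tried, with values under 0.05 in bold. Darker red is a smaller adjusted p. Cd163 and Mrc1 passed in all settings shown and Stab1 in 0 of them, and Msr1 was not tested where dim genes were left out.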

How the data were processed

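Log2 values on the scale of RMA were deposited by the authors. RMA is named in the submitters' processing notes without a version, and no source used here names the genome build of the array. RMA brings the arrays to a common distribution, which hides any shift common to most genes. Of 72688 rows, 30604 carried a single platform gene symbol, 2146 several (not named) and 39938 none. Symbols were updated through a RefSeq annotation, mouse assembly GRCm38.p6 (matched for 22818 rows by gene number, 7476 by symbol, 308 by synonym, 2 unmatched). The row with the highest mean was kept for each of 30063 genes. No batch is given in the labels.

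The values were tested as given with limma's lmFit and eBayes, AML against control, in all 6 arrays, with no filter. The fit was tested on simulated data. The members and gene lists were chosen with earlier results of these data known. Genes named were the 10 members; of each other list up to 4 past the threshold with the smallest p and up to 2 brightest of those not past it; of each marker list shown the 2 brightest; and the 5 nearest profiles. Genes named otherwise were chosen after their values were seen. Some listed genes were not analysed here. The tests ran in limma 3.58.1 under R 4.3.3 with data.table (1.17.8). Figures were drawn with matplotlib 3.10.9, and tables handled with pandas 2.3.3 and numpy 2.4.6 in Python 3.11.15.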

Additional observations from a re-analysis of the deposited data

How the results depend on the processing

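Of the 10 receptors, Cd163 and Mrc1 passed in 17 of 17 alternatives and Msr1 in 15 of the 15 that tested it. Siglec1 passed in 13, Mertk in 11, Axl in 14, Timd4 in 11, Cd68 in 6, Cd5l in 1 and Stab1 in 0 of 17, and no difference changed sign. Leaving out genes at or below the dim level was added after seeing the data, as were all alternatives for the levels relative to macrophage markers, whose counts of 6 higher and 1 lower ran from 5 to 8 and stayed at 1. The 7 falls became 3 with a 2-fold minimum and 3 to 8 without single arrays. The replicate numbers did not pair the samples (same-numbered deviations correlated at -0.36, 0.14 and -0.29); with the number as a block 3 receptors fell (Cd163, Mrc1 and Msr1), and of the genes of the 8 pathway lists 26 fell and 0 rose, against 46 and 1. Those 46 became 18 with a 2-fold minimum and 23 to 47 without single arrays. The 1 rise became 0 under median centring, when all rows were fitted or with a 1.5-fold or 2-fold minimum. It became 2 with a mean-variance trend or without genes below the median, 3 under quantile normalization, cyclic loess or without genes below the lower tertile, 8 with array weights and 0 to 4 without single arrays. Among all genes 1350 rose and 1880 fell, but 505 and 2712 under median centring, 4839 and 3014 with array weights, 206 and 861 with the block, 185 and 782 without control array 2 and 236 and 822 without control array 3. The cause of these shifts was not tested. Each receptor has 1 row, so rows could not disagree. Values near the dim level, as for Msr1, Stab1, Cd163 and Timd4 in AML, are limited by background. So are those of Siglec1 and Mertk on AML array 3, which lay below its dim level. No array group is large enough to test a single array as apart.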

Other observations

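Of the monocyte markers 7 of 9 fell and 0 rose, of the dendritic cell markers 5 of 10 fell and 0 rose, and of the other scavenger receptors 2 of 18 fell and 0 rose. Among those not past the threshold, some had the higher mean in AML with groups that overlapped. Ly6c2, Clec9a and Olr1 are given here as examples picked after their values were seen, and Lgals3bp was another. In 6 of the 18 other scavenger receptors every AML value lay above every control value, against 28.2% of all genes. Ly6c2, the antigen of classical monocytes in mice, read 12.27 ± 0.30 in AML and 11.95 ± 0.10 in control (adjusted p = 0.187), while Ccr2, the chemokine receptor of the same cells, averaged 5.67 in AML and 7.04 in control (adjusted p = 8.4e-04), with 1 of 3 AML arrays above the dim level. Clec9a, a lectin of dendritic cells that senses dead cells, averaged 7.59 ± 0.31 in AML and 7.0 ± 0.67 in control (adjusted p = 0.240). Olr1 read 10.54, 10.84 and 9.55 on the AML arrays, against 9.90, 10.05 and 9.66 on the control arrays, and passed upward without AML array 3.

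Xkr8, a scramblase that exposes phosphatidylserine on dying cells, read 6.21, 6.15 and 6.0 on the AML arrays, against 5.86, 5.91 and 5.70 on the control arrays, with no overlap (adjusted p = 0.0779). In all, 28.2% of genes had every AML value above every control value.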
